A study of Homo sapiens with 8 samples.

Results

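HP1b-only regions lost without HP1a were stretches of the genome where HP1b was listed in wild-type cells, HP1a was not, and HP1b was no longer listed once HP1a had been knocked down. They came from ChIP-seq peak lists of MCF10A, a human mammary epithelial cell line that does not form tumours. The broad peaks of both wild-type HP1b libraries on chromosomes 1 to 22 were merged into 369854 regions, and 76047 of these were met by a peak of each library. Of those, 38027 overlapped no peak of either wild-type HP1a library, and 16688 of the 38027 also overlapped no HP1b peak of either HP1a knockdown library. The members were these 16688 regions, 15.2 Mb in all. They were chosen by the presence and absence of peaks, so the loss itself is a description and carries no test.

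The genes CBX5 and CBX1 encode HP1a (HP1α) and HP1b (HP1β), a pair of closely related chromatin proteins. Each binds methylated histone H3 through a chromodomain and forms dimers through a chromoshadow domain, which also recruits partner proteins. Both are known for compacting silent heterochromatin, and HP1b is also found in gene-rich euchromatin.

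The 8 libraries were HP1b ChIP with HP1a knocked down, HP1a ChIP with HP1b knocked down, HP1b ChIP in wild type and HP1a ChIP in wild type, with replicates 1 and 2 of each. All were MCF10A cells fixed with formaldehyde, and the labels name no treatment besides the knockdowns. The labels do not describe the knockdown reagent, or say whether replicates were separate cultures, so any p value measures the spread between these libraries. Peak lists cannot show how far each protein was depleted.

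On chromosomes 1 to 22, the HP1b lists with HP1a knocked down held 149432 and 213115 peaks, against 225115 and 226766 in wild type. The HP1a lists held 18658 and 18071 peaks with HP1b knocked down, against 127402 and 109345 in wild type. The first HP1a knockdown library was thus the shortest HP1b list. Read depth is unknown, because the lists give no counts, so a lost region is one with no listed peak and not one shown to be free of HP1b. The 95% intervals below are exact binomial ones over regions and cover counting error only, and neighbouring regions are not independent.

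Few members lay at gene starts, and these are shown first because their sequence can be read. RefSeq promoter windows, from 250 bases before to 50 after a gene's start on GRCh38.p14, were met by a member in 172 of 16688 cases (1.03%). The windows below are those of the 6 such members with the highest fold in the weaker wild-type library, 1 window a member, with CpG dinucleotides in capitals and the last window from a kept region for comparison.
SNHG1, chr11:62855836-62856135, minus strand: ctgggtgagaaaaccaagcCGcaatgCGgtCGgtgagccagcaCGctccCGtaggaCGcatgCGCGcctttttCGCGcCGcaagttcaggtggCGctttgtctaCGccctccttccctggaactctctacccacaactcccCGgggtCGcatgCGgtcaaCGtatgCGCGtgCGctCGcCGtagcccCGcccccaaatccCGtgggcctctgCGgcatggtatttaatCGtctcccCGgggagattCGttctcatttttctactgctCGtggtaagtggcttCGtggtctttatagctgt
SRSF3, chr6:36594112-36594411, plus strand: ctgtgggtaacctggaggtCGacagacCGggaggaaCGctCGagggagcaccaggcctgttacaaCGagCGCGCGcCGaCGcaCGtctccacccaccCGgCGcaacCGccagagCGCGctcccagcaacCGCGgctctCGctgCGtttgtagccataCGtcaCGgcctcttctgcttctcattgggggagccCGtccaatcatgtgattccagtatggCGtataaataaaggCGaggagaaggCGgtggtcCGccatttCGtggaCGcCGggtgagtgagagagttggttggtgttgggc
HNRNPH1, chr5:179623352-179623651, minus strand: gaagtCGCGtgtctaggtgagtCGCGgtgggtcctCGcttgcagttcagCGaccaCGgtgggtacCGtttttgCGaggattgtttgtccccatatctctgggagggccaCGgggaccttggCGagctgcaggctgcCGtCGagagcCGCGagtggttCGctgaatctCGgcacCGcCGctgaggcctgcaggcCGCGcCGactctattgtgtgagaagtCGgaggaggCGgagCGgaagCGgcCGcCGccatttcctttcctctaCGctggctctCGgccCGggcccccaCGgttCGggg
RFPL1S, chr22:29442080-29442379, minus strand: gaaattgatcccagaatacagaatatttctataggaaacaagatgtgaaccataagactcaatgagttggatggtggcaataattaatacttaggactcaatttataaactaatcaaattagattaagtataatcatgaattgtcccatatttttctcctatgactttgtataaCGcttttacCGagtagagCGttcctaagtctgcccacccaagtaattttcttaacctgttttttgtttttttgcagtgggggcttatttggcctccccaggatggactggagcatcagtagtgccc
LOC124903496, chr15:55530879-55531178, minus strand: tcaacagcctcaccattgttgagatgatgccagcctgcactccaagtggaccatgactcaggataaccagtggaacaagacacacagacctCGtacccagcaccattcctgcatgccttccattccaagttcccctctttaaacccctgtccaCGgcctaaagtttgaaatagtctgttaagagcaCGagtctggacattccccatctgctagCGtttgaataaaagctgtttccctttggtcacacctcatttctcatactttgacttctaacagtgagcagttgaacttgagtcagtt
LOC101929510, chr2:7661582-7661881, plus strand: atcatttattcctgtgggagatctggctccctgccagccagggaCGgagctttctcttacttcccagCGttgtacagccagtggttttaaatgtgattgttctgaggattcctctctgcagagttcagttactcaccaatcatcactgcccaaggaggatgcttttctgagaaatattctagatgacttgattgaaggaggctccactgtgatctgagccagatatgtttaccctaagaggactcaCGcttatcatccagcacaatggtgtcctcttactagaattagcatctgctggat
LOC124904704 (kept), chr19:35575391-35575690, plus strand: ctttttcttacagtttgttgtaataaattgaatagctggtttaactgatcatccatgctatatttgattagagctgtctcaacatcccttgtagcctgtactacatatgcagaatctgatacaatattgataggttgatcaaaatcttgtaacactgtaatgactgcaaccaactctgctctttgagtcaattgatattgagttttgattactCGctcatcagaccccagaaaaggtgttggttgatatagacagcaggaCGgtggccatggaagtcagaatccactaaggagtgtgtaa

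Both kinds of promoter stood among the members with the highest fold. The SNHG1 window, at a host gene of small nucleolar RNAs whose window overlaps that of the amino acid transporter gene SLC3A2, had 30 CpG and 60% GC. SRSF3, which encodes a splicing factor, had 30 CpG and 62.3% GC, and HNRNPH1, which encodes an RNA-binding splicing regulator, had 33 CpG and 66% GC. RFPL1S, a non-coding gene, had 3 CpG and 37% GC.

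The deposited fold enrichment of these members over local background was 3.71 and 4.46 in wild-type HP1b replicates 1 and 2 at SNHG1, where the member reached 37 bases into the window. It was 4.50 and 3.61 at SRSF3, whose window lay wholly inside the member, and 3.58 and 3.53 at HNRNPH1, with 180 bases covered. It was 3.34 and 3.26 at RFPL1S, 3.41 and 3.24 at LOC124903496 and 3.44 and 3.23 at LOC101929510. At SNHG1, SRSF3 and HNRNPH1 the nearest HP1b peak left in the HP1a knockdown was 40796, 16909 and 20501 bases away. At RFPL1S, LOC124903496 and LOC101929510 it was 2940, 2497 and 501 bases away.

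Over all 192 promoter windows met by members the median GC content was 50.5% and the median CpG count 4. Windows met by kept regions, those with an HP1b peak in both HP1a knockdown libraries, had a median GC of 47% and 3 CpG (71 windows). All 33725 windows on the autosomes had 58.7% and 14. A CpG content at or above 0.6 of that expected from base composition was found in 42 of the 192 windows met by members (21.9%), in 9 of the 71 met by kept regions (12.7%) and in 49.0% of all windows. Windows met by members and by kept regions were both poorer in CpG than the windows of all genes.

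Of 5 short motifs searched on both strands, GGGCGG, the GC box, was in 22.9% of windows met by members, 9.86% of those met by kept regions and 45.0% of all windows. TATAAA, the TATA box, was in 13.02, 21.1 and 11.6%. CCAAT was in 39.6, 36.6 and 34.4%, the E-box CACGTG in 5.73, 5.63 and 7.18%, and the AP-1 motif TGACTCA in 9.90, 12.7 and 4.91%. No motif contains another, and a match is a description of the window.

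Loss was frequent among HP1b-only regions. It took in 43.9% of the 38027 (95% interval 43.4 to 44.4%). A further 11901 regions had an HP1b peak in 1 of the HP1a knockdown libraries and 9438 were kept in both. Among the 38020 wild-type HP1b regions that did carry an HP1a peak, 25.9% had no HP1b peak in either HP1a knockdown library (25.4 to 26.3%). Regions with an HP1a peak were also wider, with a median of 1319 bases against 821 for lost and 1148 for kept HP1b-only regions. These shares were not matched for width or fold.

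The count of members depended on both wild-type HP1b lists being required. With wild-type HP1b replicate 1 or 2 left out, every peak of the other list is a region, and 99895 or 101785 regions were lost, 63.4 and 64.0% of the HP1b-only ones. Peaks cut to a −log10 q of at least 2 in every list left 307 lost regions (45.7%).

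The members were held to be lost by both knockdown libraries, and each library can be read without the other. Of HP1b-only regions without a peak in HP1a knockdown replicate 1, 68.6% had none in replicate 2 either, against 31.1% of the regions with a peak in replicate 1. Of those without a peak in replicate 2, 79.7% had none in replicate 1, against 44.8% of those with one. Over all HP1b-only regions, 64.0% had no peak in replicate 1 and 55.1% had none in replicate 2. The 68.6% is thus to be read beside 55.1%, and the 79.7% beside 64.0%. Absence in 1 library went with more absence in the other, and each also lacked peaks at regions where the other had them.

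Members were narrower and weaker than kept regions. The deposited peaks in them had a median width of 532 ± 5.66 bases, against 726 ± 11.3 bases in kept regions (SD, n = 2 libraries each), and the merged regions had medians of 821 and 1148 bases. The median deposited fold was 2.89 and 3.00 in wild-type HP1b replicates 1 and 2 for members, against 3.02 and 3.17 for kept regions. In each library members were the lower ones. A region counts as met at 1 shared base, so width enters the rule itself, here and in the shares by width below. Width and fold also come from lists that the rule used, so these differences are a description.

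The lists hold many peaks close to their own limit, and the members lay there. Their median −log10 q was 1.22 and 1.37 in the wild-type HP1b replicates, against 1.30 and 1.49 for kept regions, while the lowest value in every list was 1.00. In 94 members (0.563%) and 106 kept regions (1.12%) both replicates reached a −log10 q of 2. A single peak of each replicate made up 99.1% of members and 94.4% of kept regions.

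The share lost ran down with wild-type strength. With HP1b-only regions in 10 equal classes by fold in the weaker replicate, 63.6% were lost in the lowest class (2.24 to 2.68) and, in the highest (3.19 to 5.16), 26.2%. The run was not even, since 46.6% were lost in the third class and 50.1% in the fourth. By width, 54.0% of regions of up to 600 bases were lost, 49.1% of those above 600 and up to 900 bases, 43.2% of those up to 1300 bases and 30.4% of wider ones. Both measures moved with the loss at once: among regions over 1300 bases, 55.0% were lost in the lowest class of fold and 11.8% in the highest.

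**Figure D1:**
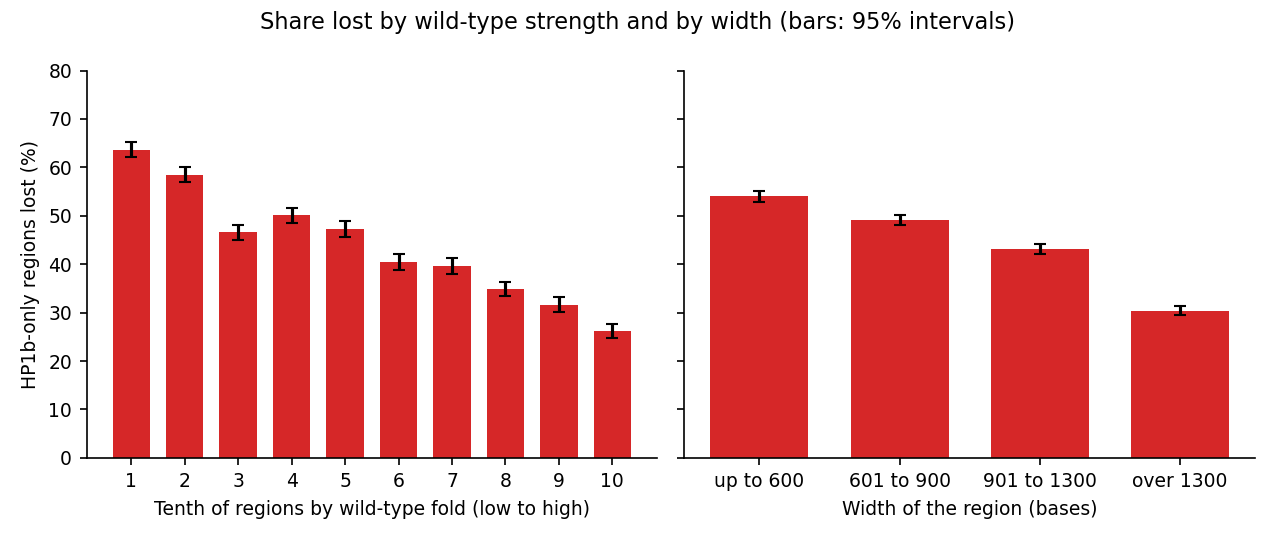
Share of wild-type HP1b-only regions lost with HP1a knocked down (percent, y axis) in 10 equal classes of wild-type fold in the weaker replicate (left) and by region width in bases (right); error bars are exact 95% binomial intervals. The share is 63.6% in the lowest and 26.2% in the highest class of fold, and 54.0% in the narrowest and 30.4% in the widest regions.

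Isolated regions were lost more often than crowded ones. The gap from a member to the next HP1b region of wild type had a median of 10046 bases, against 5025 for kept regions. With a neighbour within 1 kb 27.4% of HP1b-only regions were lost, with none within 20 kb 51.9%. Distance to wild-type HP1a made less difference, with 41.9% lost within 1 kb of an HP1a peak and 46.6% beyond 20 kb.

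Lost regions came in neighbourhoods. After a lost region, the next HP1b-only region along the chromosome was lost in 51.8% of cases, and after one that was not lost in 37.7%. The longest unbroken run held 16 members over 1.36 Mb of chromosome 13 (44737997 to 46098586), with the tumour-protein gene TPT1, SIAH3 and ZC3H13. A run of 15 lay over THADA and ZFP36L2 on chromosome 2 (42935767 to 43630459), and another over ITGB4 and GRB2 on chromosome 17 (75188458 to 76601832). ITGB4 encodes the hemidesmosome integrin of basal epithelium and GRB2 a signalling adaptor.

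Most members had a listed HP1b peak of the HP1a knockdown within 10 kb, though these lists are long and hold peaks over much of the genome. The nearest HP1b peak of either HP1a knockdown library lay at a median of 3009 bases from a member (quartiles 1226 and 6817), and 20.2% of members had one within 1 kb and 84.2% within 10 kb. Wild-type HP1a peaks lay about as near, at a median of 3290 bases and within 10 kb of 83.5% of members. Distances from sites other than members were not measured, so the values do not show that HP1b stayed around members in particular. By library, 8.99% of members had a peak of HP1a knockdown replicate 1 within 1 kb and 14.7% a peak of replicate 2. Leaving out HP1a knockdown replicate 2 lowered the share within 1 kb to 12.2%. When a knockdown peak within 1 kb was counted as meeting the region, 13312 members were left.

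Some regions lay close to either side of the rule. A knockdown peak touched 6 members without sharing a base, among them chromosome 12, 1064452 to 1065382, with fold 3.49 and 4.45 in the wild-type replicates. The region at chromosome 3, 74748564 to 74749518, was outside by 1 shared base (fold 2.74 and 3.57). In all, 177 members had a knockdown peak at no more than 50 bases, and 305 regions that were not lost shared at most 50 bases with one.

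The members with the highest wild-type fold were narrow peaks of 171 to 242 bases. The strongest lay in the zinc finger gene ZNF354B (chromosome 5, 178884711 to 178884881), with fold 4.80 and 4.85 in the wild-type replicates and the nearest knockdown HP1b peaks at 738 and 2707 bases. A member 37637 bases from PRDM9 (chromosome 5, 23469277 to 23469518), which encodes a histone methyltransferase of meiosis, had fold 4.62 and 4.42. A member in the zinc finger gene ZNF273 (chromosome 7, 64934027 to 64934226) had 4.28 and 4.31. These were high in both wild-type replicates.

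The other members named by strength were spread over 5 chromosomes. That on chromosome 4 (32146132 to 32146356), nearly 1 Mb from the protocadherin gene PCDH7, had fold 4.92 and 4.26. The member on chromosome 8 had 4.25 and 4.33 and lay 358320 bases from TRPS1, a gene for a GATA-type repressor. On chromosome 19 a member 1236 bases from ZNF404 had 4.68 and 4.12, on chromosome 11 one near the olfactory receptor gene OR10AG1 had 4.31 and 4.10, and on chromosome 1 one in BTBD8 had 4.10 and 4.57. None of these 8 was met by an HP1a peak of either HP1b knockdown library.

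The widest members had folds near the median of all members. The widest had 5061 bases in MOV10L1 (chromosome 22, 50101931 to 50106991), a germline RNA helicase gene, with fold 2.83 and 3.05. In RANBP2 on chromosome 2 (109013115 to 109017380), a nuclear pore gene, a member of 4266 bases had 3.05 and 3.08. A member of 3950 bases in FAM53B on chromosome 10 (124727761 to 124731710) had 2.83 and 2.97, and the nearest knockdown HP1b peaks were 135832 and 32693 bases away.

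HP1a ChIP in the HP1b knockdown played no part in choosing the members, and few members carried HP1a there. Its peaks covered only 9.41 and 9.18 Mb of the autosomes in replicates 1 and 2. The shares below compare classes of HP1b regions, and not members with the rest of the genome. Peaks of HP1b knockdown replicates 1 and 2 met 210 and 226 members, 1.26 and 1.35%, against 842 and 872 kept regions, 8.92 and 9.24%. Of all 76047 wild-type HP1b regions 6.14 and 6.46% were met. Members were below kept regions in both libraries, and the libraries of a class differed by far less than the classes did.

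The difference was present at each width. Among regions of up to 600 bases HP1a met 0.971 ± 0.355% of members and 4.82 ± 0.388% of kept regions (SD, n = 2 libraries). Above 1300 bases it met 1.76 ± 0.0237% of members and 12.0 ± 0.735% of kept regions. As a share of bases, HP1a covered 0.467 and 0.494% of members and 2.98 and 3.20% of kept regions. Both classes were read in the same 2 libraries, and the difference between them was not tested. The classes were not matched for wild-type fold, which was higher in kept regions.

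**Figure D2:**
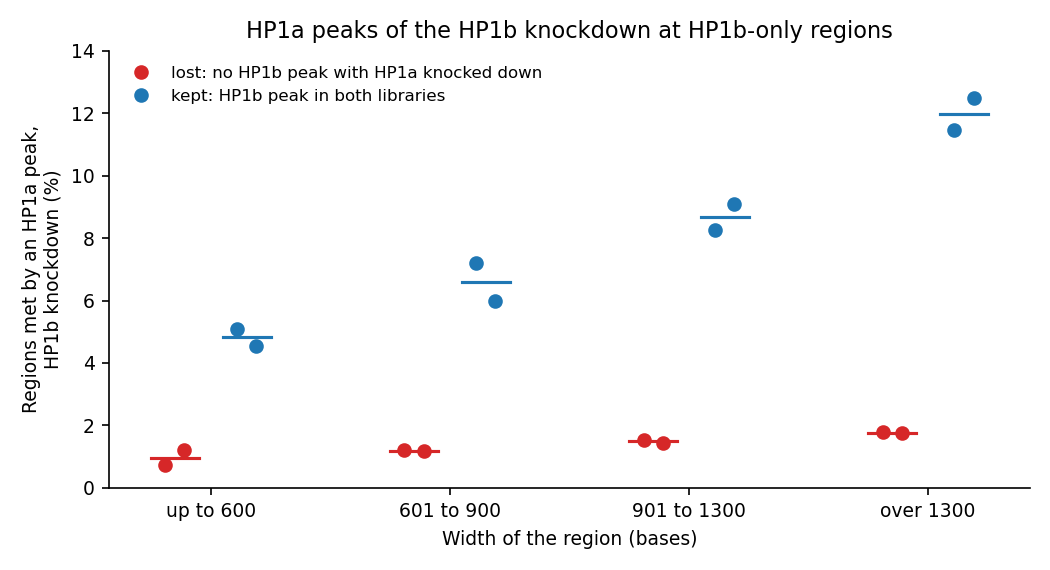
Share of HP1b-only regions met by an HP1a peak with HP1b knocked down (percent, y axis) by region width in bases; points are the 2 HP1b knockdown libraries and lines their mean, red for lost and blue for kept regions. Lost regions stay between 0.720 and 1.77% while kept regions lie between 4.55 and 12.5%.

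The share met by HP1a depended on single libraries for members. It was 1.31 ± 0.0678% (SD, n = 2), 0.887 and 0.841% without wild-type HP1b replicate 1 or 2, and 1.66 and 2.07% without HP1a knockdown replicate 1 or 2. The kept share lay between 6.69 and 10.2% over every library left out, above the members' share in each case.

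Peaks of both HP1b knockdown libraries met 9 members, against 135 kept regions. The strongest of the 9 lay 25625 bases from CKAP2 on chromosome 13 (52502252 to 52502687), with HP1a fold 3.35 and 4.22 in the HP1b knockdown and HP1b fold 3.39 and 4.005 in wild type. Next came one 52233 bases from the heparan sulfate sulfotransferase gene HS3ST4 on chromosome 16 (25639115 to 25639726), with HP1a fold 3.63 and 3.28. Others lay in the arginine methyltransferase gene PRMT8 (3.28 and 3.25) and in CD200R1L (3.25 and 3.52). At these sites HP1a was listed in the HP1b knockdown though wild-type HP1a was not.

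A different contrast, HP1a ChIP in the HP1b knockdown against HP1a ChIP in wild type, was tested in bins of 1 Mb over the whole genome. It is not a test of the difference between lost and kept regions. Relative HP1a coverage, the bases of a bin under peaks per Mb of all peak bases in a library, fell in 8.18% and rose in 7.44% of 2727 bins when HP1b was knocked down (limma, adjusted p under 0.05, n = 2 each). The bins with at least 20 HP1b-only regions numbered 510, and they lost between 0 and 85% of them, with a median of 42.9%. Relative HP1a coverage fell in 55 of the 510 (10.8%) and rose in 77 (15.1%) by limma. In the 10% of these bins with the highest share lost (51 bins, 62.5 to 85%), it fell in 13 (25.5%) and rose in 0. At an unadjusted p under 0.05 by limma, 30 of the 51 fell and 0 rose, against 628 and 317 of the 2727. The fitted log2 change was below 0 in all 51, but also in 1826 of the 2727. Of the 51, 44 lay below the median of all bins. In the 10% with the lowest share lost (51 bins, 0 to 13.6%) relative coverage rose in 39 (76.5%) and fell in 0 (47 and 1 at an unadjusted p under 0.05).

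The median log2 change of relative HP1a coverage was −0.84 where most HP1b-only regions were lost and 1.55 where fewest were, against −0.34 over all bins. These are shifts of shares, and the HP1b knockdown lists are much shorter. Without scaling the medians were −3.27, −1.02 and −2.62, and covered HP1a bases fell by limma in 51 of the 51 bins with the highest share lost and in 39 of the 51 with the lowest, and rose in none of either (adjusted p under 0.05). The direction in the bins with the lowest share lost thus turns with the scaling. The wild-type HP1a lists enter both this contrast and the choice of members.

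Single libraries and strict peaks also changed the scaled calls. Leaving out a library changed the calls over all bins as well, so median log2 changes are given here. In the bins with the highest share lost the median was −0.85 and −0.92 without wild-type HP1a replicate 1 or 2. Without HP1b knockdown replicate 1 or 2 it was −0.92 and −0.70. In those with the lowest share lost it was 1.43, 1.69, 1.55 and 1.44 in the same order. Over all bins it was −0.36, −0.33, −0.30 and −0.28. With −log10 p of at least 4 in every list, 0 of the bins with the highest share lost fell and 2 of those with the lowest rose by limma. Of all bins, 635 then had an unadjusted p under 0.05 in either direction. The medians of the bins with the highest and lowest share lost were −0.94 and 1.11. With a replicate block 19 fell and 43 rose.

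**Figure D3:**
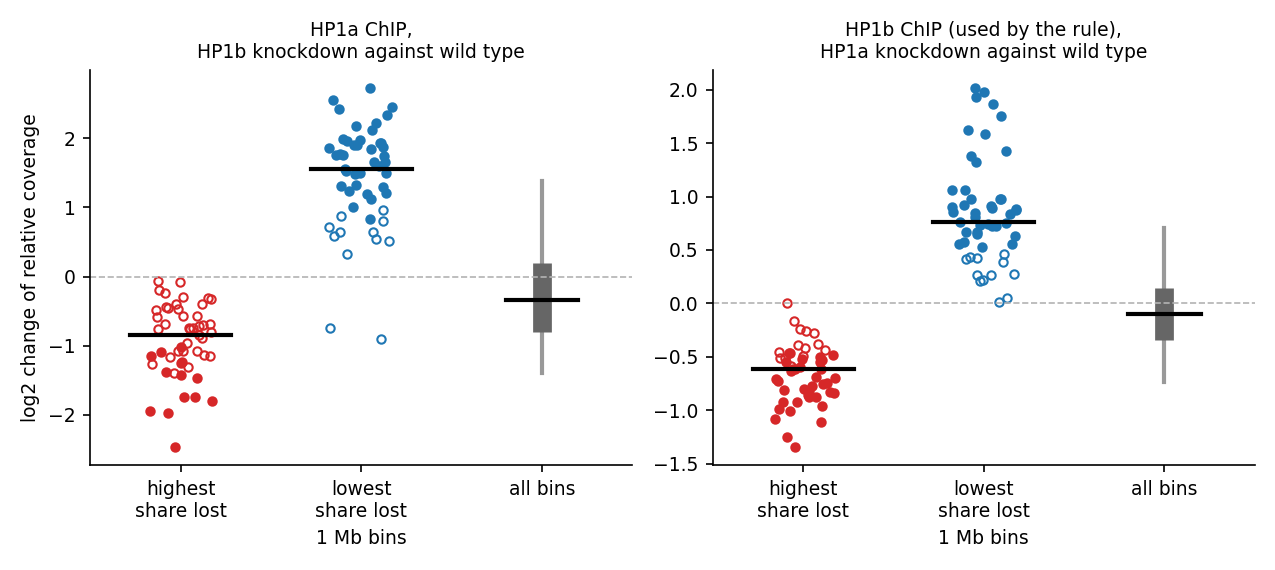
Log2 change of relative coverage in 1 Mb bins with at least 20 HP1b-only regions, for HP1a ChIP in the HP1b knockdown (left) and HP1b ChIP in the HP1a knockdown (right), both against wild type; points are the 51 bins with the highest (red) and lowest (blue) share lost, filled where the adjusted p is under 0.05, with black lines at medians, and the grey box and line span the middle 50 and 90% of all bins. For HP1a the medians are −0.84 and 1.55, and without scaling both fall (−3.27 and −1.02); the right panel shows the contrast that chose the regions.

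HP1b coverage in the same bins is the contrast that the rule used and is given only for its size. Over the genome 13.3% of 2738 bins fell and 7.41% rose with HP1a knocked down (limma). Of the 51 bins with the highest share lost 36 fell, and of the 51 with the lowest 39 rose. Without wild-type HP1b replicate 1 or 2, 17 and 12 fell and 30 and 24 rose. The counts were 7 and 14 without the filter, 9 and 15 without scaling and 5 and 18 with −log10 p of at least 4.

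The bin with the highest share lost was at 149 to 150 Mb of chromosome 5, with PPARGC1B, a coactivator gene of mitochondrial metabolism, and the casein kinase gene CSNK1A1. Of its 20 HP1b-only regions 17 were lost. HP1a peaks covered 0.293 and 0.209% of it with HP1b knocked down, against 8.82 and 7.41% in wild type (log2 −1.97, SE 0.23, adjusted p 0.00418, limma). Fewer bases under HP1a peaks were the rule in the HP1b knockdown, since without scaling 2584 of 2727 bins fell (limma).

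Next in share lost were 51 to 52 Mb of chromosome 20, with NFATC2 and SALL4 (18 of 22 lost), 57 to 58 Mb of chromosome 3, with IL17RD and ARHGEF3 (17 of 21), and 48 to 49 Mb of chromosome 18, with the inhibitory SMAD gene SMAD7 and CTIF (17 of 21). The log2 change of relative HP1a coverage was −1.02 (adjusted p 0.0447), −0.39 (0.442) and −1.13 (0.0661) by limma in these bins. Only the first of the 3 passed the threshold.

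The most members in a bin, 25 of 42 HP1b-only regions, lay at 54 to 55 Mb of chromosome 16 with FTO and the homeobox genes IRX3 and IRX5. Relative HP1a coverage there had a log2 change of −0.27 (adjusted p 0.439, limma). Bins with 22 members lay on chromosome 1 at 94 to 95 Mb (F3, the tissue factor gene, and ABCA4), on chromosome 14 at 68 to 69 Mb (RAD51B and ZFP36L1) and on chromosome 16 at 10 to 11 Mb (GRIN2A and CIITA). The first and last of these fell in HP1a (log2 −1.24 and −1.15, adjusted p 0.0322 and 0.0336), and the chromosome 14 bin had −1.24 (0.0823).

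Some of the bins rich in HP1b-only regions held no member, and 4 of them are described here. Another, starting at 128 Mb of chromosome 12, had 0 of 35 lost as well. At 131 to 132 Mb of chromosome 11, with the neuronal adhesion gene NTM, none of 33 was lost, and HP1a covered 2.57 and 2.502% with HP1b knocked down, against 2.88 and 2.41% in wild type (log2 of the relative coverage 2.45, SE 0.19, adjusted p 0.0022, limma). The others described were 138 to 139 Mb of chromosome 8 with COL22A1 (0 of 34), 130 to 131 Mb of chromosome 10 with GLRX3 (0 of 24) and 5 to 6 Mb of chromosome 12 with VWF and NTF3 (0 of 37). Relative HP1a coverage rose in these too (log2 1.98, 1.93 and 1.98, adjusted p 0.00369, 0.00418 and 0.00411, limma). The share of bases under HP1a peaks was nonetheless lower with HP1b knocked down, at 8.75 and 11.5% against 15.9 and 16.9% in wild type on chromosome 8. It was 2.21 and 1.62% against 2.92 and 2.87% in wild type on chromosome 10, and 1.73 and 2.34% against 3.32 and 2.67% in wild type on chromosome 12.

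Chromosome 19, which is rich in zinc finger genes, had the lowest share lost. Of its 1291 HP1b-only regions 289 were lost (22.4%, interval 20.1 to 24.8%), against 44.6% on the other autosomes, which ran from 38.2% on chromosome 7 to 50.3% on chromosome 20. Regions without a peak in HP1a knockdown replicate 1 were 39.5% on chromosome 19 and 64.8% elsewhere, and without one in replicate 2 31.6 and 55.9%. Both libraries put chromosome 19 below every other autosome.

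Chromosome 19 was lower among narrow and wide regions alike. Up to 600 bases 42.5% of its regions were lost, against 54.3% elsewhere, and above 1300 bases 10.6%, against 31.3%. Within chromosome 19, 14.5% of 379 regions in or within 1 kb of C2H2 zinc finger genes were lost and 25.7% of the 912 others. Leaving out wild-type HP1b replicate 1 or 2 raised its share lost to 44.8 and 44.4%, still the lowest, with the other autosomes at 58.7 to 71.3% and 60.3 to 70.6%. With −log10 q of at least 2 the share was 51.3% of 39 regions, no longer the lowest of the autosomes. With −log10 p of at least 4 it was 42.4%, with chromosome 1 lower at 40.4%.

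**Figure D4:**
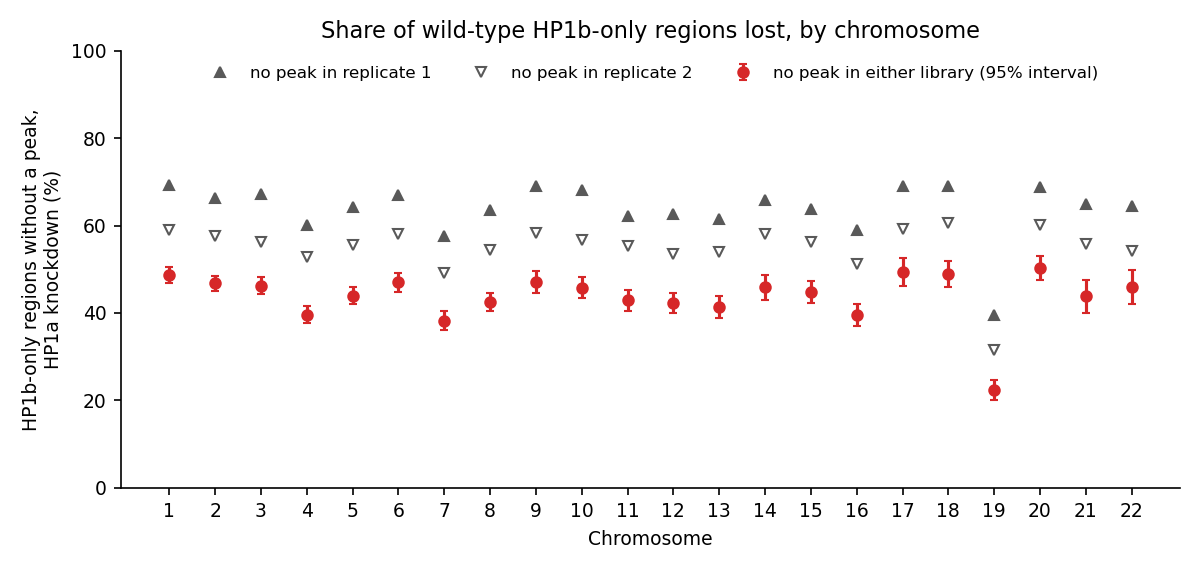
Share of HP1b-only regions without an HP1b peak in the HP1a knockdown (percent, y axis) on each autosome; red points need the peak to be missing from both libraries (with exact 95% binomial intervals), and triangles from 1 library. Chromosome 19 is lowest by each measure, at 22.4% for both libraries.

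Near chromosome ends loss was less common. Within 5 Mb of an end, as far as peaks or genes reach, 32.6% of HP1b-only regions were lost, against 44.7% elsewhere. Regions over 500 kb from a protein-coding gene were lost in 33.5% of cases (1084 of 3238).

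Members lay in genes more often than kept regions did. Protein-coding genes held 41.4% of members (40.6 to 42.1%), against 33.0% of kept regions (32.0 to 33.9%). Another 14.5% of members and 15.8% of kept regions lay in lncRNA genes only, and 44.1 and 51.2% in neither. Stated the other way, 49.3% of HP1b-only regions in protein-coding genes were lost and 40.4% of those outside both kinds of gene. Of regions on a promoter window 54.8% were lost (172 of 314, interval 49.1 to 60.4%).

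Within genes the share lost went down at the longest ones. It was 58.1% in genes of up to 20 kb, 55.2% at 100 to 200 kb and 39.6% in genes of 500 kb or longer. In or within 1 kb of a protein-coding gene lay 7073 distinct members, spread over 3868 of 19126 genes (20.2%). Longer genes hold more members because they hold more regions: 5.17% of genes of up to 20 kb and 90.4% of those of 500 kb or longer had at least 1.

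The genes with the most members were very long. DCC (chromosome 18, 52340197 to 53535899), the netrin receptor gene, held 23 members of 35 HP1b-only regions and 1 kept region. FHIT on chromosome 3, at a common fragile site, held 22 of 40. TENM4 on chromosome 11, a teneurin gene, held 20 of 27. In each of these genes lost regions outnumbered kept ones, as they did over all HP1b-only regions (16688 lost and 9438 kept). The genes were chosen by their number of members, so this is a description.

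MACROD2 on chromosome 20, an ADP-ribosylhydrolase gene, was nearer to balance, with 19 members of 51 and 15 kept. FRMD4A on chromosome 10, a gene of epithelial polarity, held 18 of 24, RAD51B on chromosome 14, for a protein of homologous recombination, 18 of 31, and WWOX on chromosome 16, at a fragile site, 18 of 34. Of the genes named here for their number of members, MACROD2 and FHIT also had the most regions with HP1a, 61 and 43.

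Per length, and among genes with at least 5 members, those with the highest density were shorter. IL17RD (chromosome 3, 57089982 to 57170317), for an inhibitor of growth factor signalling, held 5 members and no other HP1b-only region, 62.2 members per Mb. CD247, for the T-cell receptor zeta chain, had 56.9 per Mb, and ADGRF5, for an adhesion receptor, 48.8. SEMA5B, a semaphorin gene, and SYT2, a synaptotagmin gene, had 41.8 and 41.7. None of these 5 genes had a kept region, though they were chosen by their density of members.

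Gene families differed in their share lost, which is given beside 49.3% for all protein-coding genes (7073 of 14333). C2H2 zinc finger genes lost 141 of 653 HP1b-only regions (21.6%, interval 18.5 to 24.95%), 14.5% on chromosome 19 and 31.4% elsewhere. Those with the most members were ZNF385D (5 of 6), ZFP64 (3 of 3) and ZNF106 (3 of 3), none of them on chromosome 19. Clustered protocadherin genes, which diversify neuronal cell surfaces, lost none of 11 distinct regions, which with so few allows a share of up to 28.5%, and 9 of the 11 were kept. Olfactory receptor genes lost 18 of 53 (34.0%, interval 21.5 to 48.3%), with 2 of 6 at OR9Q1.

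Among structural genes collagen chain genes lost 27 of 78 regions (34.6%, interval 24.2 to 46.2%). COL21A1 held 6 members of 13, COL13A1 2 of 2 and COL23A1 2 of 8. Cadherin genes lost 47 of 97 (48.5%), led by CDH13 with 17 of 28, a cadherin without a transmembrane part, while CDH12 lost 6 of 24 and CDH18 5 of 15. Potassium channel genes lost 82 of 159 (51.6%), with 12 of 22 in KCNMA1 and 6 of 6 in KCNN3, both calcium-activated channels.

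Keratin genes lost 8 of 10 regions (80%, interval 44.4 to 97.5%), a single one each at KRT19, KRT20 and KRT39 among others. HOX genes lost 3 of 3, at HOXA3, HOXA4 and HOXC10 among others. HOXA3 and HOXA4 overlap and count the same member. Intervals of this width span the share of all genes for keratins, and with 3 regions the HOX share is not informative.

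Genes of the TGF-beta and BMP pathway lost 20 of 32 regions (62.5%, interval 43.7 to 78.9%, which spans the share of all genes). A member was held by 11 of the 30 genes (36.7%), against 20.2% of all protein-coding genes. The listed genes were also longer, with a median of 84.8 kb against 24.5 kb. The type I receptor gene ACVR1 lost 3 of 3 and kept none, and the receptor genes TGFBR1 and TGFBR2 held 1 member each. SMAD3, for the signal transducer, lost 3 of 3, and LTBP1, for a latent TGF-beta binding protein, 3 of 5. BMPR2 lost 2 of 5 and BMP6, a ligand gene, 2 of 4.

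Mesenchymal genes lost 6 of 7 regions (interval 42.1 to 99.6%, which spans the share of all genes), 1 each at COL1A2 (of 2), MMP2, S100A4, TNC and ZEB2 among others. Basal epithelial genes lost 5 of 12 (41.7%, interval 15.2 to 72.3%), with 2 of 7 in TP63, the basal transcription factor gene, and 1 each in the laminin genes LAMA3 (of 3) and LAMB3 (of 1). Of the 18 heterochromatin genes on the autosomes only EHMT1, which encodes a histone methyltransferase, had any HP1b-only region, and 2 of its 4 were lost. Neither CBX1, CBX3 nor CBX5 had an HP1b-only region, so none could be lost there.

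**Figure D5:**
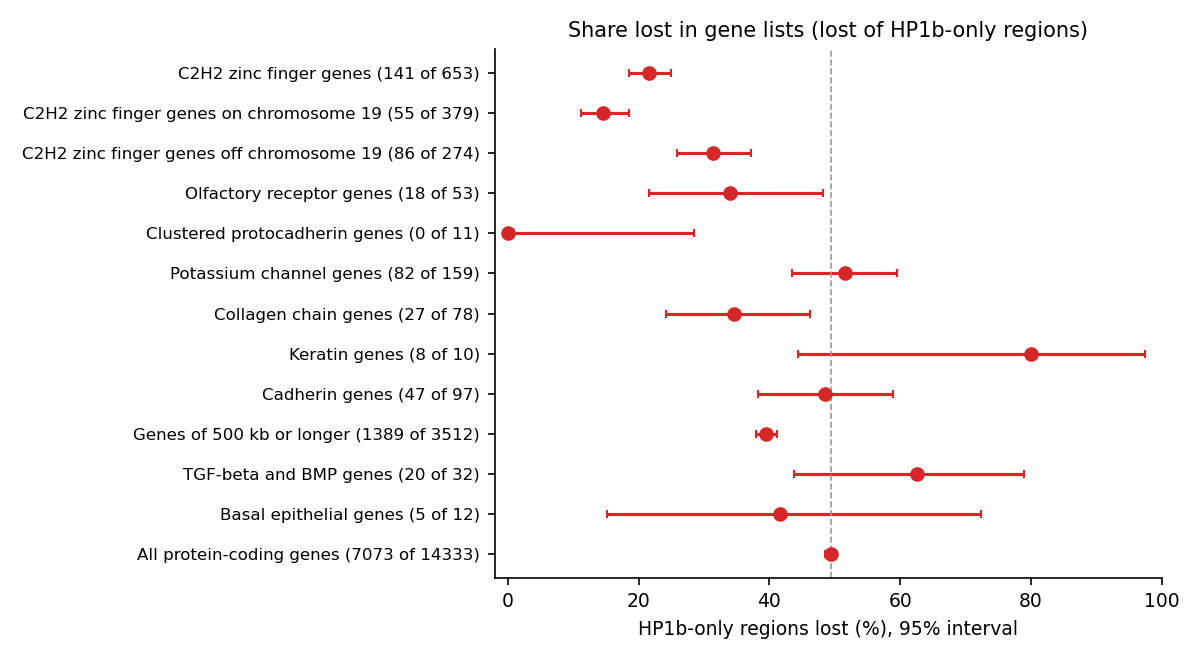
Share of HP1b-only regions lost (percent, x axis) in or within 1 kb of the genes of each list with at least 10 such regions; bars are exact 95% binomial intervals and the dashed line marks all protein-coding genes, in the bottom row. Clustered protocadherin genes (0%), C2H2 zinc finger genes (21.6%), olfactory receptor genes (34.0%), collagen chain genes (34.6%) and genes of 500 kb or longer (39.6%) lie below 49.3% with intervals that do not reach it.

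MicroRNA hairpins were met by few members, 7 of 1461 on the autosomes (0.479%), among them MIR1269A and MIR4324. The 9438 kept regions met 1, and the 11901 with an HP1b peak in 1 HP1a knockdown library met 2. The 38020 wild-type HP1b regions with HP1a met 28. Members numbered 16688, and these counts were not scaled to the size of each class.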

How the data were processed

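HP1a and HP1b ChIP-seq peak lists of MCF10A cells were used, 8 libraries in 4 groups of 2, grouped by the sample titles. Per the submitters' processing notes the authors used Trimmomatic, Bowtie2, SAMtools and MACS3 with hg38, while the labels name no version, setting or control library. Each library has its own list, with replicates not pooled. The deposited columns hold each peak's bounds, a score (10 times the −log10 q as a whole number in nearly every peak), the fold enrichment as a ratio, the −log10 p-value and the −log10 q. They hold no counts, so depth and its precision are unknown.

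Regions were merged, and met if they shared at least 1 base. Genes and promoter windows came from RefSeq on GRCh38.p14, whose chromosomes are those of hg38, with 1 kb added to each side of genes. Intervals of shares are exact binomial, and values the rule used were not tested, apart from the whole-genome bin fit for HP1b, which is given as a description. Bins of 1 Mb were kept where at least 2 of 4 libraries had peaks and were fitted with limma 3.58.1 (R 4.3.3, trended prior variance) on the log2 scale after adding to relative coverage a pseudocount, the 10th percentile of values above 0 (88.6 and 131 bases per Mb covered). P-values were Benjamini-Hochberg adjusted and called under 0.05. Tested on simulated data, each fit recovered 100% of 200 bins changed by a log2 of 2, with 6 (HP1a) and 12 (HP1b) false calls. The simulation gave all bins the same spread and used only bins with peaks in all 4 libraries (2529 for HP1a and 2731 for HP1b). Recovery of smaller changes, such as the medians reported above, or in sparser bins was not tested.

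Named regions and genes followed a rule: the strongest and widest members, those on promoters, those met by HP1a in the HP1b knockdown, the genes and bins with most members, and up to 3 genes a list. Genes named beyond those 3, and the runs of members were named after their values were seen. Some genes that the rule names are not reported here. The members, lists and rule were chosen with earlier results of these data known. Alternatives changed peak strength, list length, overlap, distance, pseudocount, filter, scaling, bin size, the replicate block and single libraries; leaving out chromosome 19 was added after the data were seen.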

Additional observations from a re-analysis of the deposited data

How the results depend on the processing

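The number of lost regions was 307 with −log10 q of at least 2, 1119 with −log10 p of at least 4, 7902 with the same number of top peaks per list and 37574 with 50% overlap, and 20233 to 101785 with a library left out. The share lost was 45.7, 48.8, 40.7 and 60.8% under those settings, 35.0% with knockdown peaks within 1 kb, 44.6% without chromosome 19 and 40.2 to 64.0% with a library left out. HP1a with HP1b knocked down met 0.163, 2.68, 1.53 and 0.476% of lost regions and 0.813, 9.75, 10.2 and 2.95% of kept ones in the same order. It met 1.12 and 7.97% with the 1 kb distance and 0.841 to 2.07% and 6.69 to 10.2% with a library left out, and 8.75% of kept regions without chromosome 19, so lost regions were lower under each of these settings. With −log10 q of at least 2 the HP1a lists of the HP1b knockdown held only 321 and 246 peaks. The shares under that setting thus rest on very few regions met. The median fold of lost regions was 3.85, 3.58 and 3.10 with the 3 stricter lists and 2.88 to 2.98 with a library left out. Their median peak width was 347, 473, 538 and, with 50% overlap, 666.5 bases, and 429 to 556 with a library left out. The share within 1 kb of a knockdown peak was 12.7, 11.9, 18.01 and 52.2%, and 12.2 to 20.7% with a library left out. The causes were not tested, beyond the numbers of regions each setting leaves.

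In the bins, HP1a rose in 203 and fell in 223 with HP1b knocked down. This was 97 and 58 without the filter, 3 and 2584 without scaling and 7 and 0 with −log10 p of at least 4 by limma (635 in either direction with unadjusted p under 0.05), 961 fell in bins of 250 kb, and with a library left out 121 to 485 rose and 22 to 1008 fell. HP1b with HP1a knocked down rose in 203 and fell in 365, and in 70 and 30 without the filter, 49 and 45 without scaling, 743 and 1279 in bins of 250 kb and 78 and 54 with −log10 p of at least 4. With a library left out 97 to 416 rose and 66 to 799 fell. With a replicate block HP1b rose in 320 and fell in 615 bins, and HP1a in 231 and 310. Whether equal numbers pair the libraries is not stated, and with 2 pairs the correlation of their deviations (0.31 for HP1b, 0.05 for HP1a) does not settle it. Counts with a library left out rest on fewer residual degrees of freedom. Without read counts no detection limit could be set.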
